A study of Homo sapiens with 4 samples.

Results

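Long intergenic noncoding RNAs that carry a numbered LINC symbol were followed in KELLY cells, an established line of human neuroblastoma that carries extra copies of MYCN. A LINC symbol is a placeholder name for a long RNA transcribed between protein-coding genes and not known to encode a protein. Members were chosen by their measured counts: all symbols made of LINC and digits with a mean raw read count of at least 10 over the 4 libraries. This rule kept 156 of 1650 LINC symbols, or 9.45%, among 28063 genes counted. The rule used the mean level over both groups, so the levels below are a description, and it did not use the difference between groups. Both groups had received IWS1-FLAG, a tagged transcription elongation factor of RNA polymerase II, from a lentivirus and were selected with 1 ug/ml puromycin and grown in 10% serum. The WT group carried the wild-type form and the M3 group a form in which TIM3, one of the short motifs through which IWS1 binds partner proteins, was disrupted. Each group had 2 libraries of poly(A) RNA from cells at 50% confluency. The labels do not say whether the libraries came from separate cultures, so p-values measure the spread between libraries, which may be technical.

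Long noncoding RNAs are made by RNA polymerase II and are often capped, spliced and polyadenylated like mRNAs, but they tend to be less abundant and many stay in the nucleus, where the RNA exosome degrades part of them. Some are hosts of microRNAs or snoRNAs, some act on a neighbouring gene through the act of their transcription, and a few turned out to encode small proteins. The function of most numbered LINC transcripts is not known. Only polyadenylated molecules were captured here, so noncoding RNAs without a poly(A) tail are under-represented.

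The libraries held 13645171 and 20962372 gene counts in WT 1 and WT 2, and 12289685 and 13581628 in M3 1 and M3 2. Outside annotated features lay 23.3% (WT 1), 23.2% (WT 2), 27.5% (M3 1) and 25.6% (M3 2) of the reads. The level of IWS1, from the cells' own gene and the introduced one together, was 370 and 393 CPM (reads scaled to library size with TMM factors) in WT and 596 and 599 CPM in M3. Its log2 fold change was 0.65 ± 0.13 (SE, n = 2 per group; edgeR adjusted p = 0.0211). The groups therefore differed in total IWS1 RNA as well as in the form introduced, and the 2 cannot be told apart here. The IWS1 level does not show which form the cells carried. Summed over 7 adrenergic neuroblastoma markers, the level was 5676 to 5976 CPM in WT and 4602 to 4652 CPM in M3. Of the 7, 3 (PHOX2A, DBH and TH) were lower in M3 by edgeR's quasi-likelihood test at an adjusted p under 0.05. Of all tested genes 6.67% were lower by the same test. Markers of glia (4 genes, S100B at 0 reads in every library) summed to 3.84 to 4.16 CPM in WT and 2.1 to 3.4 in M3. Fibroblast markers (4 genes) summed to 15.2 to 21.8 CPM in WT and 21.0 to 22.5 in M3. Endothelial markers (3 genes) summed to 0.664 to 1.04 CPM in WT and 0.312 to 0.638 in M3. Haematopoietic markers (3 genes, CD3E at 0) summed to 0.0474 to 0.720 CPM in WT and 0 to 0.142 in M3. Epithelial markers (3 genes) summed to 0.664 to 6.56 CPM in WT and 0.284 to 0.935 in M3, the highest value resting on 72 reads of KRT5 in WT 1. The part of these differences in the results below was not tested, and in bulk RNA fewer cells of a type and less RNA per cell cannot be told apart.

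Most LINC transcripts were scarce. Of the 1494 LINC symbols under the minimum, 1024 had no read in any library and 470 had at least 1. Among the members the median mean count was 44.6 reads, against 383 over the 14159 genes tested, and mean counts ran from 10 to 2603. The median level was 2.84 CPM, 30 members reached 10 CPM and 29 stayed under 1 CPM. Reads were concentrated in few members: the most abundant one took 11.6% and the top 8 took 44.3% of all member reads. Just inside the minimum, LINC00173 had 6 and 19 reads in WT and 6 and 9 in M3, LINC00324 had 10 and 19 in WT and 6 and 5 in M3, and LINC01695 had 5 and 17 in WT and 6 and 12 in M3, each a mean of 10. Just outside, LINC00562 had 3 and 19 reads in WT and 11 and 6 in M3, LINC01465 had 8 and 10 in WT and 13 and 8 in M3, and LINC00955 had 10 and 13 in WT and 7 and 8 in M3.

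By position the members lay on 23 chromosomes, with 13 each on chromosomes 1, 2 and 17. Of the 156, 132 lay apart from protein-coding gene spans, at a median of 23 kb from the nearest one, 20 overlapped one in part and 4 lay inside one. RefSeq now lists 153 as long noncoding RNAs and 3 as protein-coding genes: LINC00634 as SMIM45, LINC00672 as LASP1NB and LINC01279 as CCDC80. A further 8 have been renamed as divergent transcripts of a neighbouring gene, 2 as snoRNA host genes (LINC00888 as SNHG33 and LINC02001 as SNHG30) and 2 as antisense RNAs. The 143 members with a GENCODE transcript had a median transcript length of 2194 nt and a median of 4 exons, against 3628 nt and 9 exons over all tested genes. Their median GC content, 48.3%, lay close to the 48.6% of all tested genes. In 31 members more than 10% of the exonic bases lay in another annotated gene, so their counts are uncertain.

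**Figure D1:**
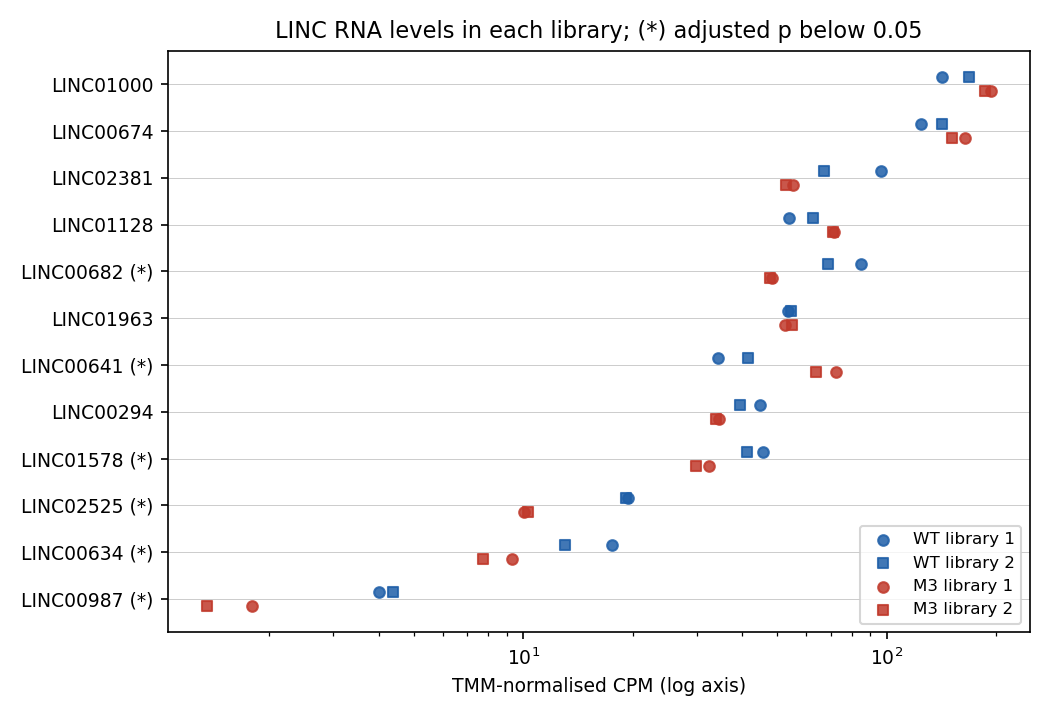
Level of named LINC transcripts in each library, in TMM-scaled CPM on a log axis, with blue points for the 2 WT libraries and red for the 2 M3 libraries; an asterisk marks an adjusted p under 0.05. LINC00641 was higher in both M3 libraries than in both WT libraries, LINC00682 and LINC02525 were lower, and LINC01963 lay between 52.5 and 54.9 CPM in all 4.

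At the chosen threshold, few members changed between WT and M3. By edgeR's quasi-likelihood test with Benjamini-Hochberg adjustment over all 14159 tested genes, 6 of 156 members (3.85%) passed an adjusted p of 0.05, against 16.1% of all tested genes. Of these, 1 was higher in M3, LINC00641 (0.641%, against 9.4% of all genes), and 5 were lower (3.21%, against 6.67%): LINC00987, LINC02525, LINC00634, LINC00682 and LINC01578. The groups did not overlap for 74 members (47.4%), 38 with M3 above and 36 with M3 below, against 67.9% of all tested genes. Whether the members differ from other genes in these shares was not tested. With trends on transcript length and GC content removed, the shares lay close together: 6 of 143 members (4.2%, 3 higher and 3 lower) against 5.15% of all genes. The median log2 fold change of the members was -0.02, and -0.0069 over all tested genes, with 73 members above 0 and 83 below. The counts moved when a library was left out, for members and for all genes alike. In each such fit the group left with 1 library is taken to vary as much as the other group does. Without M3 1 edgeR called 0 members (16 at an unadjusted p under 0.05) and 2.6% of all genes. Without M3 2 it called 3 members higher and 1 lower (2.56%, against 7.66% of all genes), and without WT 1 it called 3 higher and 7 lower (6.41%, against 24.9%). Without WT 2 it called 21 higher and 18 lower (25%, against 47.5%). With total-count scaling in place of TMM, 1 was higher and 2 were lower (1.92%, against 8.86% of all genes), and the median was 0.092 for the members and 0.11 for all tested genes.

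Read depth went with these shares. Of the 83 members with a mean of 10 to 50 reads 1 passed (1.2%, against 2.93% of all genes in that range), and their median standard error was 0.46 on the log2 scale. Of the 50 members with 50 to 200 reads 1 passed (2%, against 9.96%), with a median standard error of 0.25. Of the 23 members with 200 reads or more 4 passed (17.4%, against 21.3%), with a median standard error of 0.15. The range of fitted changes was wide, from -1.76 for LINC01770 to 1.58 for LINC02585, but of 15 members with a fitted change of at least 2-fold only 1, LINC00987, passed. At an unadjusted p under 0.05, 28 members stood out, 12 higher and 16 lower, or 17.9% against 35.7% of all tested genes.

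**Figure D2:**
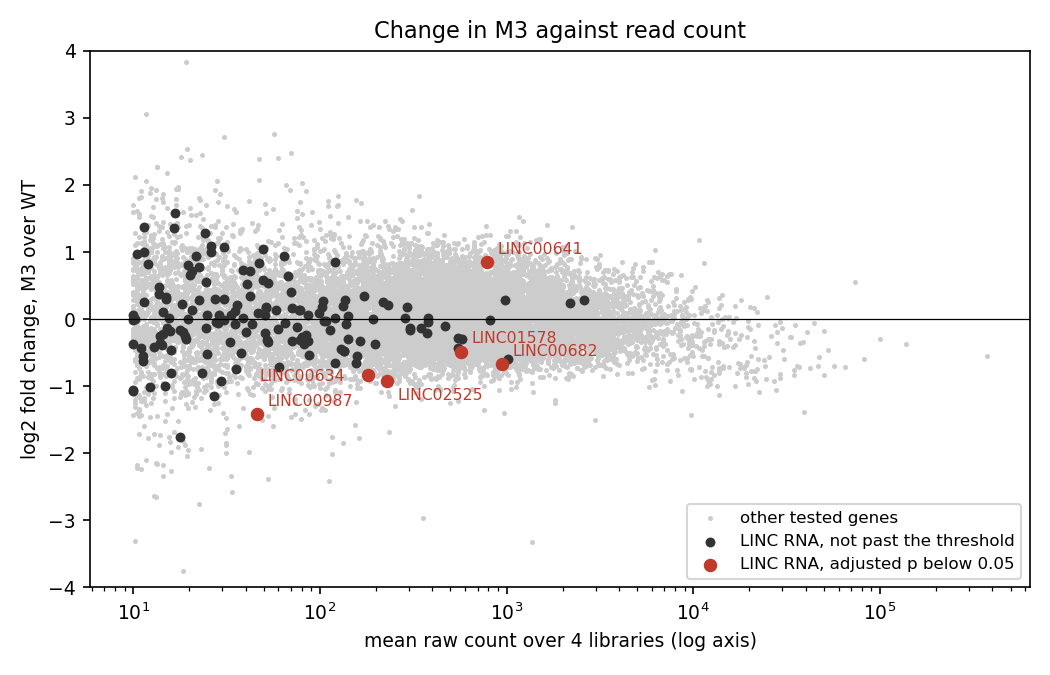
Log2 fold change of M3 over WT for each tested gene against its mean raw count on a log axis, with LINC transcripts dark and the 6 that passed the test in red; 7 genes that are not members lie beyond the plotted range of 4. Members with few reads spread widely without passing, and 4 of the 6 that passed had a mean of at least 200 reads.

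LINC00641, a noncoding RNA of chromosome 14, was the 1 member that rose. It was at 34.3 and 41.4 CPM in WT 1 and WT 2 and at 72.7 and 64.0 CPM in M3 1 and M3 2, on 429, 873, 933 and 902 reads. The 2 M3 values were the highest and the groups did not overlap. The log2 fold change was 0.85 ± 0.15 (SE, n = 2 per group; edgeR adjusted p = 0.0194), a 1.80-fold rise. The gene spans chr14:21200079-21206900 (GRCh38, minus strand) with 2 exons, and lies 2.25 kb past the end of HNRNPC on the same strand, whose product binds nascent RNA. HNRNPC had 769 and 664 CPM in WT and 653 and 710 CPM in M3, overlapping between groups, with a log2 fold change of -0.07 ± 0.14 (edgeR adjusted p = 0.744).

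Among the members that fell, LINC00682 was the most abundant. It had 84.6 and 68.9 CPM in WT and 48.3 and 47.6 CPM in M3. The groups did not overlap, the M3 libraries lay close together and WT 1 was the highest. The log2 fold change was -0.68 ± 0.14 (SE, n = 2 per group; edgeR adjusted p = 0.0257). It spans chr4:41879521-41882611 (minus strand). The nearest protein-coding gene, TMEM33, 52.5 kb away on the other strand, encodes a membrane protein of the endoplasmic reticulum. TMEM33 rose, from 125 and 121 CPM in WT to 193 and 186 CPM in M3 (log2 fold change 0.62 ± 0.11, edgeR adjusted p = 0.0209).

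LINC01578, now named CHASERR, is a conserved noncoding RNA whose transcription is known to restrain CHD2, the chromatin remodeller gene that follows it on the same strand. It had 45.7 and 41.3 CPM in WT and 32.3 and 29.8 CPM in M3, with no overlap between groups. Its log2 fold change was -0.48 ± 0.14 (edgeR adjusted p = 0.0466, close to the threshold). The gene spans chr15:92882843-92898747 (plus strand) and ends 1.58 kb before CHD2. CHD2 had 77.8 and 119 CPM in WT and 149 and 129 CPM in M3. Both M3 values lay above both WT values, but WT 1 lay far below WT 2 and the log2 fold change of 0.49 ± 0.19 did not pass (edgeR adjusted p = 0.103).

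The RefSeq promoter windows of LINC00641, LINC00682 and LINC01578 are shown because these are the transcripts of highest level among those that changed. Each covers 250 bases before and 50 after the start (GRCh38.p14), written 5′ to 3′ on the gene's strand: chr14:21206851-21207150 (minus), chr4:41882562-41882861 (minus) and chr15:92882593-92882892 (plus). Capitals mark matches to 6 motifs searched on both strands.
LINC00641: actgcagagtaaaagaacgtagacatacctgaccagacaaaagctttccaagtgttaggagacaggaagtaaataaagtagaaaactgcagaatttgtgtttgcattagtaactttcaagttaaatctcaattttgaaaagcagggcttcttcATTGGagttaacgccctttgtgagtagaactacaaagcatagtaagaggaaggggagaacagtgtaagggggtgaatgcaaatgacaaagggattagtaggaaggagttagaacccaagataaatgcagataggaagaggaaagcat
LINC00682: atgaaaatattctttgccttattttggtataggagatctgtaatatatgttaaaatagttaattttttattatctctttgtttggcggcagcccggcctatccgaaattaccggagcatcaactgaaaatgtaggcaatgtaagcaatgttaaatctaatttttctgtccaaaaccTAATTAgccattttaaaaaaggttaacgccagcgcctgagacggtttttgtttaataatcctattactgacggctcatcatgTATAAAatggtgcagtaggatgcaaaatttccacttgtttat
LINC01578: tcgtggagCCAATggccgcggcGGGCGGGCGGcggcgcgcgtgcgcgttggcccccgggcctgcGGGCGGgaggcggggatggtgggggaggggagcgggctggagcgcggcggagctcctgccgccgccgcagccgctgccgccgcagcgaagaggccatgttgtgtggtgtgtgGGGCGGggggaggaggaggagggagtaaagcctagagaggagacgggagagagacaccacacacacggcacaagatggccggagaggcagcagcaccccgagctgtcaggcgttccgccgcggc
The LINC00641 window held 1 CCAAT box, on the opposite strand, and the LINC01578 window held 1 CCAAT box and 4 GC boxes (GGGCGG), of which 2 overlap. The LINC00682 window, at 34% GC the poorest in G and C of these 3, held 1 TATAAA, at bases 259 to 264 of the window and so after the start, and 1 homeodomain core (TAATTA). LINC00641 had 39% GC and LINC01578 had 74.7%. Of 27305 RefSeq promoters, CCAAT was in 35.7%, GGGCGG in 44.6%, TATAAA in 12% and TAATTA in 4.98%. Among 118 members with a promoter entry the shares were 44.1%, 52.5%, 13.6% and 5.93%. The E-box CACGTG, which MYC family factors bind, was in 10.2% of member promoters and 7.43% of all, and the ETS core CCGGAA in 21.2% and 17.6%. These are counts of letters and were not tested.

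LINC02525 was nearly level within each group. It had 19.4 and 19.2 CPM in WT and 10.0 and 10.3 CPM in M3, on 243, 404, 129 and 145 reads. The gap between the groups was far larger than the spread within either, but a spread from 2 libraries at these read counts is itself uncertain. Its log2 fold change was -0.92 ± 0.16 (SE, n = 2 per group; edgeR adjusted p = 0.0191), and it spans chr6:3182817-3195767 (minus strand). TUBB2A, a neuronal beta-tubulin gene 25.3 kb away on the same strand, fell too: 107 and 91.3 CPM in WT, 68.9 and 71.4 CPM in M3, log2 fold change -0.49 ± 0.13 (edgeR adjusted p = 0.0400).

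LINC00634 is the symbol of a locus that RefSeq now lists as the protein-coding gene SMIM45, so its name as noncoding is outdated. It had 17.5 and 13.0 CPM in WT and 9.27 and 7.73 CPM in M3, without overlap. The log2 fold change was -0.84 ± 0.21 (edgeR adjusted p = 0.0348). It spans chr22:41946949-41958939 (plus strand), and its span overlaps that of CENPM, a centromere protein gene, on the other strand. In GENCODE 0% of its exonic bases lie in another annotated gene. The annotation and strand setting of the counting are not given, and whether reads of the 2 genes were mixed was not tested. CENPM had 103 and 68.9 CPM in WT and 58.2 and 59.7 CPM in M3 (log2 fold change -0.54 ± 0.19, edgeR adjusted p = 0.0745).

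LINC00987 had the largest change of those that passed, on the fewest reads. It had 50 and 92 reads in WT and 23 and 19 in M3, or 4.0 and 4.36 CPM against 1.79 and 1.35 CPM. All WT values lay above all M3 values. The log2 fold change was -1.42 ± 0.32 (SE, n = 2 per group; edgeR adjusted p = 0.0291). It spans chr12:9240073-9262901 (plus strand), and 44.0% of its exonic bases lie in other annotated genes (A2MP1, AC010175.1 and PTMAP4), so its count is uncertain. KLRG1, a receptor gene of lymphocytes 24.5 kb away, was low, at 1.60 and 1.42 CPM in WT and 2.41 and 1.91 CPM in M3 (log2 fold change 0.52 ± 0.37, edgeR adjusted p = 0.336).

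Some of these calls were lost when a library was left out, or when the counts were corrected or scaled in another way. Without M3 1, none of the 6 passed edgeR's test (0 of 156 members, 16 at an unadjusted p under 0.05; adjusted p 0.0589 to 0.310 for the 6), while with all 4 libraries DESeq2 and limma-voom each called 7 members. Their log2 fold changes without M3 1 were 0.75 for LINC00641, -0.69 for LINC00682, -0.54 for LINC01578, -0.91 for LINC02525, -0.97 for LINC00634 and -1.63 for LINC00987, close to or larger than those with all libraries, except for LINC00641, which was somewhat smaller. Without M3 2, LINC00641 and LINC02525 still passed and the other 4 did not. When trends of counts on transcript length and GC content were removed, LINC00682 went to -0.27 (edgeR adjusted p = 0.130), LINC00634 to -0.37 (edgeR adjusted p = 0.238) and LINC00641 to 0.53 (edgeR adjusted p = 0.0236). Scaling to total counts ended the calls of LINC00987 (edgeR adjusted p = 0.0514), LINC00634 (0.0633) and LINC01578 (0.115).

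**Figure D3:**
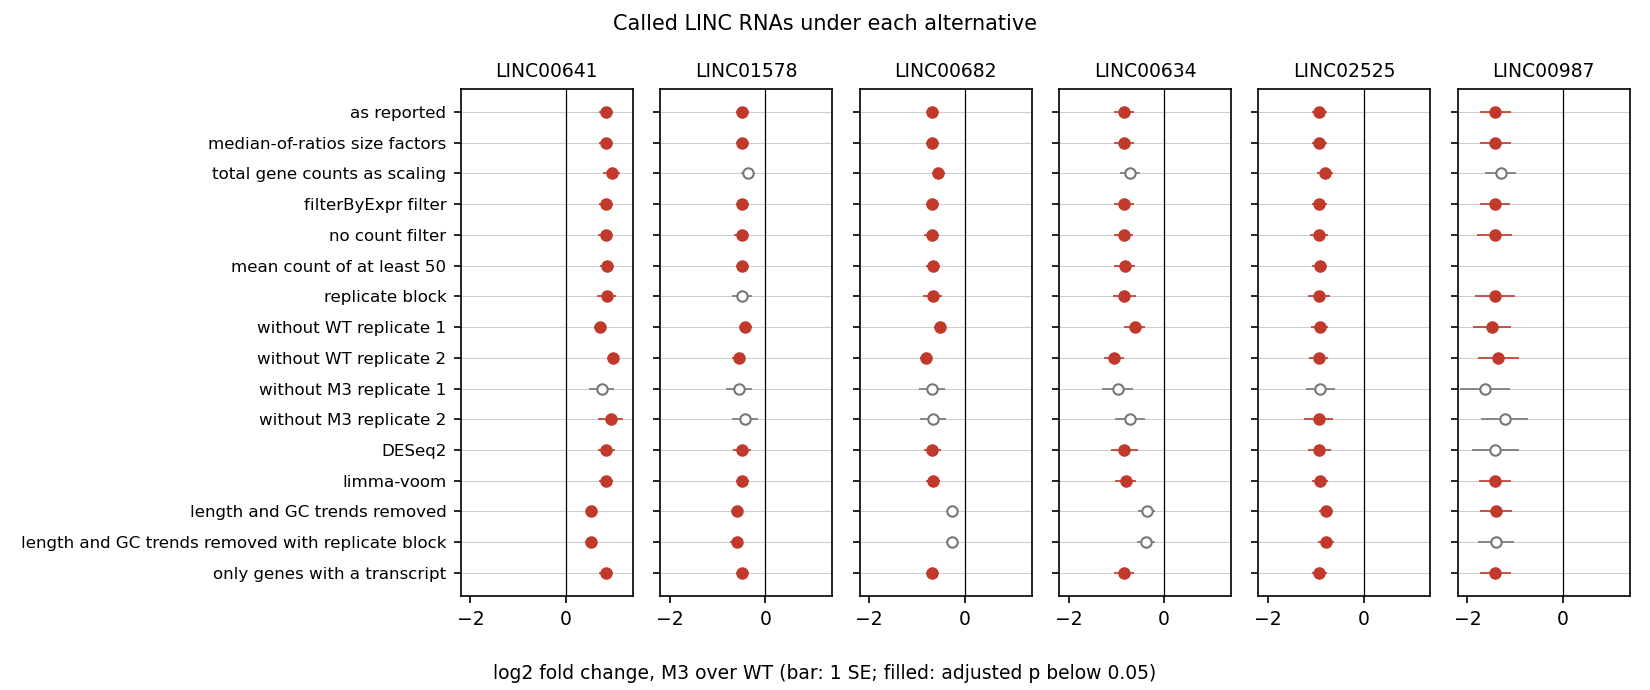
Log2 fold change of M3 over WT for the 6 members that passed, one panel per transcript, as reported and under each alternative drawn, with bars of 1 SE; filled points passed an adjusted p of 0.05 and open points did not, or, for LINC00987 in DESeq2, had no adjusted p. All points of a transcript lie on the same side of 0, and those without M3 1 are open for all 6.

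Several of the most abundant members did not pass. LINC01000, on chromosome 7, was the most abundant, at 142 and 168 CPM in WT and 193 and 186 CPM in M3. LINC00674, which GENCODE types as a transcribed pseudogene and whose reads may be shared with its parent gene, had 124 and 142 CPM in WT and 164 and 152 CPM in M3. LINC01128 had 53.9 and 62.5 CPM in WT and 71.6 and 71.0 CPM in M3. All 3 were higher in both M3 libraries than in both WT libraries, with log2 fold changes of 0.29 ± 0.13, 0.25 ± 0.12 and 0.29 ± 0.13 (edgeR adjusted p = 0.138, 0.190 and 0.153). These values moved with the WT library left out: without WT 1 they were 0.17, 0.15 and 0.19, and without WT 2 they were 0.42, 0.34 and 0.40 and all 3 passed. LINC01128 went to 0.056, and LINC00674 to 0.39, with length and GC trends removed. LINC02381, beside the HOXC cluster, had 96.1 and 67.1 CPM in WT and 55.1 and 52.7 CPM in M3 and did not pass (-0.59 ± 0.18, edgeR adjusted p = 0.0509). It passed in DESeq2 (adjusted p = 0.0172), without a count filter, without WT 1 (-0.32) and without WT 2 (-0.83), and went to -0.19 with length and GC trends removed. LINC00294 had 44.9 and 39.3 CPM in WT and 34.4 and 34.0 CPM in M3 (-0.30 ± 0.14, edgeR adjusted p = 0.157), with 17.4% of its exonic bases in other genes, and passed without WT 2 (-0.39). LINC01963 was nearly level, at 53.6 and 54.3 CPM in WT and 52.5 and 54.9 CPM in M3, a log2 fold change of -0.01 ± 0.13 (edgeR adjusted p = 0.974).

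Per kilobase of exon the order was different. LINC00674 led at 198 CPM per kb, on 734 exonic bases, followed by LINC02381 at 29.3, LINC01315 at 28.7, LINC00682 at 20.2 and LINC01963 at 17.1 CPM per kb. LINC02525 and LINC00641 came 13th and 14th, at 9.79 and 9.29 CPM per kb. LINC01000 has no transcript in the annotation used and was not ranked.

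Of 18 LINC transcripts listed for a known role or a place in the neuroblastoma and cancer literature, 8 were members, 4 were under the minimum and 6 had no entry under these symbols. Of the 8, LINC00682 and LINC01578 passed, both lower. LINC00599, which holds a miR-124 gene, had 32.6 and 46.6 CPM in WT and 28.0 and 31 CPM in M3, lower in both M3 libraries (-0.43 ± 0.18, edgeR adjusted p = 0.129). It was -0.66 without WT 1, where it passed, and -0.14 without WT 2, and it also passed without a count filter (edgeR adjusted p = 0.0342). LINC00632, the precursor of the circular RNA CDR1as, had 5.20 and 10.3 CPM in WT and 9.50 and 9.86 CPM in M3, with WT 1 apart from the other 3 libraries (0.29 ± 0.29, edgeR adjusted p = 0.502). Its sign turned, to -0.58, when length and GC trends were removed, and to -0.092 without WT 1, and it passed without WT 2 (0.90). LINC00467, studied as a MYCN-repressed transcript, overlapped between groups at 7.12, 4.84, 5.69 and 4.11 CPM in WT 1, WT 2, M3 1 and M3 2 (-0.27 ± 0.29, edgeR adjusted p = 0.524). LINC00839, studied in neuroblastoma, was level at 19, 18.5, 19.7 and 18.3 CPM in the same order (0.02 ± 0.15, edgeR adjusted p = 0.934). LINC00665, studied in several cancers, was at 35.4, 29.1, 27.5 and 32 CPM (-0.11 ± 0.16, edgeR adjusted p = 0.649). LINC00473, which cAMP signalling induces, was rare, at 0.320 and 0.522 CPM in WT and 1.32 and 0.993 CPM in M3 (1.38 ± 0.54, edgeR adjusted p = 0.106). With a mean of 11.5 reads it passed the minimum of 10 only through the higher M3 libraries, so its change is a description. It lies within the span of PDE10A, a cyclic nucleotide phosphodiesterase gene, which rose from 11.7 and 17.2 CPM to 31.2 and 31.1 CPM (1.09 ± 0.19, edgeR adjusted p = 0.0194), and their reads may not be separable.

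Besides LINC02381, 4 members had an adjusted p between 0.05 and 0.06 and were named after their values were seen: LINC00342, LINC01004, LINC01087 and LINC02585. All 4 had higher values in both M3 libraries. LINC00342 had the most reads of them, 90 and 103 in WT and 158 and 130 in M3, a log2 fold change of 0.85 ± 0.25 (edgeR adjusted p = 0.0518). LINC02585 had the fewest, 5 and 15 in WT and 26 and 21 in M3, a log2 fold change of 1.58 ± 0.49 (edgeR adjusted p = 0.0571).

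Summed over all members, LINC reads made up 1363 and 1501 CPM of the gene counts, without TMM factors, in WT and 1554 and 1506 CPM in M3 (means 1432 ± 97.1 and 1530 ± 34.4, SD, n = 2). The exact 95% binomial intervals, which cover counting error only, were 1344 to 1383, 1484 to 1517, 1533 to 1577 and 1485 to 1527 in the same order. WT 1 lay below the other 3 libraries, and the interval of WT 2 overlapped that of M3 2. Without LINC01000 the sums were 1234 and 1332 CPM in WT and 1353 and 1313 CPM in M3, overlapping between groups. With TMM-scaled library sizes the sums were 1488 and 1492 CPM in WT and 1488 and 1450 CPM in M3, so the sign of the difference between means turned. With 2 libraries per group an exact permutation test cannot go below p = 0.33, and none is given.

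Medians of the members were also taken by gene structure. By GC content the median log2 fold change was 0.06 in the lowest tercile, -0.0041 in the middle one and -0.09 in the highest. By transcript length it was -0.03, -0.0016 and 0.01 from the shortest to the longest tercile. The 24 members that overlap or lie inside a protein-coding span had a median of -0.03 and the 132 others -0.01. The 31 members with more than 10% exonic overlap had a median of -0.16, with 1 lower call, and the 112 members with less had 0.02, with 1 higher and 4 lower. None of these splits was tested.

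Changes of members and of their nearest protein-coding genes were set side by side for 122 members with a tested neighbour (117 genes). Of the 122 pairs 15 had a neighbour that was higher and 6 one that was lower in M3 by edgeR's test. SAMD11 entered the lower count for both LINC01128 and LINC00115. Over all tested genes 9.4% were higher and 6.67% lower. The median log2 fold change of the neighbours was 0.06 over the pairs. Across the pairs the changes correlated weakly (Pearson r = 0.15, Spearman rho = 0.12) and 64 pairs had the same sign. For the 43 pairs within 5 kb or overlapping, r was 0.30 and rho 0.16, with 21 of the same sign. For the 33 pairs beyond 50 kb, r was 0.11 and rho 0.12, with 19 of the same sign. These values are descriptions across genes measured in the same 4 libraries, and some neighbours occur more than once.

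**Figure D4:**
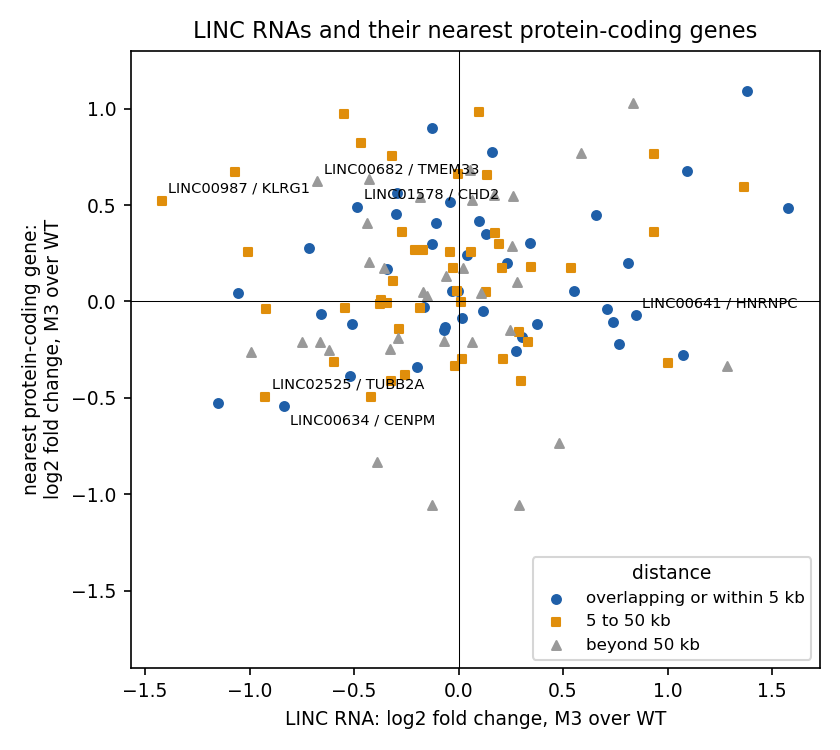
Log2 fold change of members (x axis) against that of their nearest protein-coding genes (y axis), coloured by distance, for the 122 members whose nearest gene was tested. The 122 points form a broad cloud, and LINC00682 with TMEM33 lies among the pairs of opposite sign.

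Other classes of noncoding RNA gave different counts in the same fit, without a test of the differences. Over all tested genes 16.1% were called, 9.4% higher and 6.67% lower. Of 331 antisense RNAs 5 were higher and 15 lower (6.04%, median log2 fold change -0.07). Of 28 divergent transcripts and 19 microRNA host genes, edgeR, DESeq2 and limma-voom each called 0, with 4 and 3 at an unadjusted edgeR p under 0.05. Of 19 snoRNA host genes 7 were lower (36.8%, median -0.58), with a median of 441 reads against 44.6 for the LINC members. LINC00888 and LINC02001, the members renamed as snoRNA hosts, were both lower in both M3 libraries, at 28.8 and 24.6 CPM in WT and 22.6 and 23.5 CPM in M3 for LINC00888, and 14.2 and 10.9 against 8.49 and 7.37 CPM for LINC02001, and neither passed. Of 15 long noncoding RNAs with names of their own, 3 rose and 0 fell (20%). Over all tested genes 16.1% were called in either direction and 9.4% were higher. Those that rose were KCNQ1OT1, an imprinted antisense RNA (log2 fold change 1.01), NORAD, which binds PUMILIO proteins (0.63), and TUG1 (0.67). Of 21 genes of the nuclear RNA exosome and its adaptors, 1 was higher and 2 were lower (14.3%, near the 16.1% of all tested genes). DIS3, a catalytic subunit, was higher (0.48). EXOSC4, a core subunit, and PABPN1, a nuclear poly(A)-binding protein, were lower (-0.65 and -0.73).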

How the data were processed

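Poly(A) RNA was sequenced from KELLY cells in 2 WT and 2 M3 libraries. The authors deposited unnormalised whole-number counts for each gene symbol, in a table per library. The submitters' processing notes name hg38, DESeq2, HTSeq and HISAT2 2.1.0; which annotation and strand setting was not given in the sources used here. Reads with no feature (23.2% to 27.5%) and ambiguous reads (3.16% to 3.50%) were left out of both the library sizes and the tests.

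M3 was compared with WT in edgeR 4.0.16 (R 4.3.3), with TMM factors of 0.916 to 1.04, the robust form of the quasi-likelihood F test, no covariates, and p-values adjusted by Benjamini-Hochberg (threshold 0.05), on the 14159 genes with a mean of at least 10 reads, which is the cut of the rule, so that all 156 members were tested. The script was tested on simulated data. The standard error is the fold change divided by the root of F. The biological coefficient of variation was 0.125. Counts of the WT pair differed beyond sampling noise (chi-square per degree of freedom 24.1), as did those of the M3 pair (4.63). Between groups the values were 25.5 (WT 2 and M3 2), 34.9 (WT 2 and M3 1), 61.0 (WT 1 and M3 2) and 76.3 (WT 1 and M3 1). By this measure WT 2 lay about as far from WT 1 as from M3 2. Gene positions and promoters came from RefSeq GRCh38.p14 (135 members matched by symbol, 21 by synonym) and transcripts from GENCODE 29.

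The members and lists were chosen with earlier results of these data known. 1 gene of the adrenergic marker list is not reported here and was left out of its sums and counts. Named were IWS1, the 8 members of highest CPM, members past the threshold without overlap, those on the role list, those beside the minimum and nearest protein-coding genes. Alternatives were other scalings, count filters and thresholds, limma-voom (limma 3.58.1), DESeq2 1.42.0, a replicate block, the omission of each library, and removal of length and GC trends (splines with 5 degrees of freedom per library, on 13722 genes). With a library left out, the remaining one is taken to vary as much as the other group does.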

Additional observations from a re-analysis of the deposited data

Results flagged for a closer look

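Reads in no annotated feature were 27.5% of counted reads in M3 1 and 25.6% in M3 2, above the 23.3% and 23.2% of WT 1 and WT 2. These reads enter none of the comparisons of LINC transcripts. Their part in the values of the members was not tested.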

How the results depend on the processing

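The number of LINC members past the threshold (1 higher, 5 lower) depended on the processing. Shares of members called are set beside those of all genes. With total counts as scaling 2 were lower (1.92% against 8.86%), and the median of the members went from -0.02 to 0.092 and that of all tested genes from -0.0069 to 0.11. Without a count filter 7 were higher and 12 lower (12.2% against 19.4%). With a mean of at least 50 reads 2 were higher and 4 lower (8.22% of 73 members, against 19.2%). DESeq2 and limma-voom each called 2 higher and 5 lower. The shares have unlike bases: DESeq2 gave an adjusted p to only 69 members (10.1% called, against 22.6% of 11688 genes). The limma-voom share is over all 156 members (4.49%, against 15.3% of 14159 genes). With length and GC trends removed 3 were higher and 3 lower (4.2% against 5.15%, median 0.094), and with the replicate block added 3 and 2 (3.5% against 3.88%, median 0.13). At an adjusted p of 0.01, edgeR called 0 members in either direction (28 at an unadjusted p under 0.05) and 0 of all genes. Leaving out each library gave 0 to 21 higher, 0 to 18 lower and a median from -0.044 to 0.068: the fewest calls came without M3 1 (0% against 2.6%) and the most without WT 2 (25% against 47.5%). In each of these fits the group left with 1 library is taken to vary as much as the other group does. The WT pair differed more (chi-square per degree of freedom 24.1) than the M3 pair (4.63). The part of this in the counts was not tested.

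With the replicate block 5 were higher and 6 lower (7.05% against 16.4%), and LINC01578 did not pass, at nearly the same log2 fold change (-0.49 against -0.48, edgeR adjusted p = 0.0853), while LINC02381 passed (edgeR adjusted p = 0.0312). Same-numbered libraries did not deviate together (r = -0.144 over all tested genes and -0.030 over the members). With 2 libraries per group this cannot show whether same-numbered libraries were prepared together, and the labels do not say. A crossed replicate block, added after seeing the data, gave 12 higher and 12 lower (15.4% against 37.3%). The summed member reads differed by 98.1 CPM (M3 minus WT), by 50.1 without LINC01000 and by -20.8 with TMM-scaled sizes. Over the alternatives, 264 values of named members kept their direction and side of the threshold, 25 no longer passed, 12 newly passed and 17 changed sign, all 17 of members that did not pass. With total counts these were LINC01963 (0.11) and LINC00665 (0.0098). With length and GC trends removed they were LINC00632 (-0.58), LINC00665 (0.0040) and LINC01695 (-0.28), and with the replicate block added -0.54, 0.0040 and -0.21. Leaving out each library, values ran from -0.092 to 0.90 for LINC00632, -0.54 to 0.010 for LINC00467, -0.25 to 0.030 for LINC00665, -0.43 to 0.72 for LINC01695, -0.040 to 0.024 for LINC01963, -0.69 to 0.21 for LINC00173 and -0.033 to 0.074 for LINC00839. For the 83 members under 50 reads the median standard error was 0.46.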

Other observations

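Of 470 LINC symbols with reads but under the minimum of 10, 13 had reads in both M3 libraries and none in WT. Another 10 had reads in both WT libraries and none in M3. The same counts over all genes were not taken, and the libraries differed in depth (12289685 to 20962372 gene counts). Whether these symbols exceed what sparse counts give was not tested. LINC01981 had 2 and 8 reads in M3, and LINC01118 had 7 and 3 in WT. A count of 0 allows up to 3 reads, and no fold is given.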
